A study of Oryctolagus cuniculus with 54 samples.

Results

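Lung gene expression was compared between the 28th day of gestation (F28) and 4 days after birth at term (T35) in New Zealand White rabbits, using the libraries read in sequencing run 1. Members were taken from the labels, and no measured value was used to choose them: the 3 T35 animals with a run 1 library (1, 6 and 11) were set against the 3 F28 animals with a run 1 library (2, 7 and 9). These are 6 of the 54 libraries of the series, which covers 45 animals, and 6 of the 18 libraries of run 1. The question is which genes differ between the late fetal lung and the first days of air breathing in the normal course of lung development, when both ages are read in the same run.

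F28 pups were delivered by caesarean section at day 28, and their lungs were collected at once. Their dams had been sedated with medetomidine, ketamine and xylazine and killed with pentothal before the pups were taken out. T35 pups were born naturally at day 31 and stayed with their mothers in room air for 4 days, which gives the gestational age of 35 days in the name of the group. Each pup of an age came from a different dam, according to the study's methods, and the labels do not give the sex of the pups. Age, birth, breathing of air, feeding, the route of delivery and the drugs given to the dam all differ between the groups and cannot be told apart. RNA came from homogenates of the right lung, so each library averages over all cell types present. In such bulk samples fewer cells of a type and less RNA per cell cannot be told apart.

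In the rabbit, as in other mammals, the lung passes through a saccular phase, in which the distal airways widen into thin-walled sacs and the epithelium matures, and an alveolar phase, in which secondary septa divide the sacs into alveoli. F28 belongs to the saccular phase and T35 to the alveolar phase. Around birth the lung clears its fluid, releases surfactant that lowers surface tension at the air-liquid interface, and comes into contact with air and microbes. The table carries Ensembl identifiers without names, and 0 of the 29587 could be paired with a symbol. The results are therefore given by identifier, level and pattern, with no gene function, and lung markers could not be checked.

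The F28 libraries held 5965473 counts in animal 2, 5862298 in animal 7 and 6610616 in animal 9. The T35 libraries were all deeper, with 7381691 counts in animal 1, 7217677 in animal 6 and 7232583 in animal 11. Genes with any count numbered 15886, 15650 and 15894 at F28 and 16013, 15948 and 16015 at T35. The 10 most abundant genes took 10%, 9.48% and 12.1% of the counts at F28 and 13.7%, 14.9% and 14.3% at T35. The T35 mean of this share was 14.3% against 10.5%, a difference of 3.78 percentage points with no overlap (exact permutation test over 20 divisions, two-sided p = 0.1, the smallest that 3 against 3 animals allow). The second most abundant gene, described below, made up 2.36 points of this difference, and without it the share was 9.15%, 8.65% and 7.71% at F28 and 8.83%, 10.5% and 10.3% at T35, which overlap. Expression was compared after trimmed mean of M-values (TMM) scaling, which left the median log2 difference over all genes tested at -0.01.

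Of 13357 genes tested, 737 (5.52%) differed by more than 2-fold at an adjusted p of at most 0.05 (edgeR quasi-likelihood test, Benjamini-Hochberg adjustment), and these are called below. Of these, 433 were higher at T35 (3.24% of the genes tested) and 304 were lower (2.28%), so that 58.8% of the called genes were higher. With library size as the only scaling, the called genes numbered 775, of which 337 (43.5%) were higher and 438 lower, and the median over all genes was -0.14. The majority of called genes was therefore higher under TMM and lower under library size alone. Another 729 genes passed the adjusted p with a change under 2-fold, 373 of them higher and 356 lower, and 994 genes (7.44%) differed by more than 2-fold without passing the adjusted p.

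The called genes that were higher had a median log2 fold change of 1.69, or 3.23-fold, with an interquartile range of 1.26 to 2.42. The lower genes had a median of -1.43, or a 2.69-fold decrease, with an interquartile range of -1.16 to -1.87. The largest change was a decrease, with a log2 fold change of -8.19. Under TMM scaling, more genes had large changes on the higher side, where 156 genes exceeded 4-fold and 60 exceeded 8-fold, against 66 and 20 on the lower side. Some of these genes were close to the counting limit: 7 of the higher genes had 0 counts in every F28 library, and 2 of the lower genes had 0 counts in every T35 library. Against 3 counts over the group, these genes were at least 3.66-fold to 18-fold higher and at least 5.92-fold to 9.87-fold lower, bounds that lie beyond the medians of their sets, so the medians do not depend on them.

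**Figure D1:**
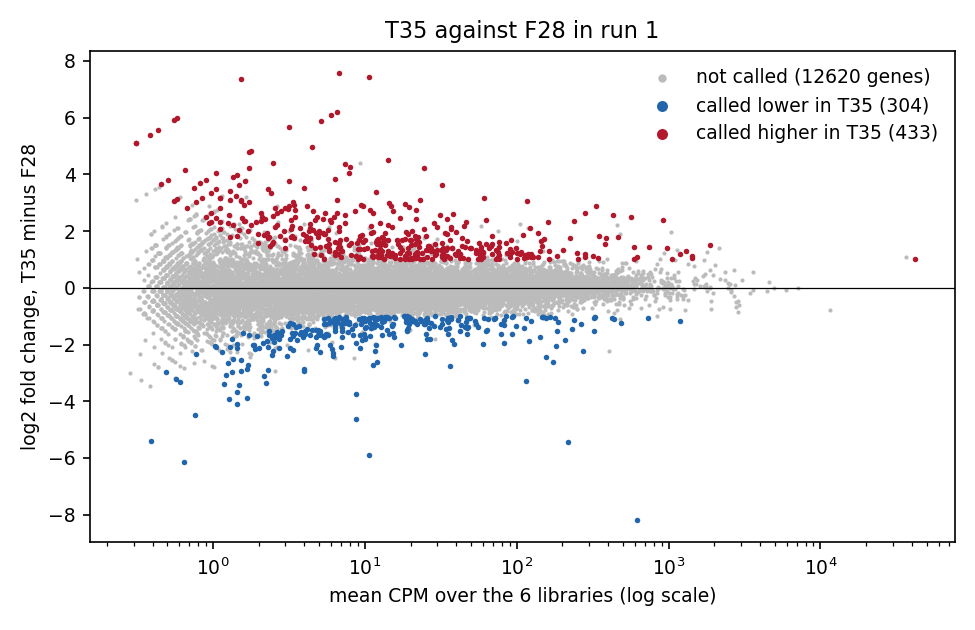
Log2 fold change of T35 over F28 (vertical axis) against the mean abundance of each gene in counts per 1000000 counts of the library (CPM, log scale on the horizontal axis) for the 13357 genes tested. The 433 called higher and the 304 called lower genes are coloured, and they are found at all abundances, with log2 fold changes from -8.19 to 7.57.

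Abundance is given in CPM, counts per 1000000 counts of the library. The called genes covered its whole range. Among the 1304 genes under 1 CPM, 29 (2.22%) were called, and the median standard error of their log2 fold changes was 0.74. In the class of 1 to 10 CPM 301 of 4191 genes (7.18%) were called, in the class of 10 to 100 CPM 320 of 5737 (5.58%) and in the class of 100 to 1000 CPM 79 of 2027 (3.9%). The standard error fell to 0.41, 0.18 and 0.13 in these classes, so the less abundant genes needed larger changes to pass. Of the 98 genes at 1000 CPM or more, 8 (8.16%) were called, 7 of them higher.

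The called genes that were higher took 5.18%, 4.51% and 3.94% of all counts in F28 animals 2, 7 and 9. In T35 animals 1, 6 and 11 they took 8.33%, 10.4% and 9.35%. The lower genes took 2.21%, 2.22% and 1.82% at F28 and 0.736%, 0.640% and 0.703% at T35. These shares describe the genes chosen by the same contrast and carry no test. Their 95% Wilson intervals are at most 0.0445 percentage points wide and cover counting error only.

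Gene ENSOCUG00000006893 had the second largest increase among the 528 called genes with at least 5 CPM and groups that did not overlap (311 higher, 217 lower). It had 2, 0 and 0 counts in F28 animals 2, 7 and 9 and 159, 142 and 139 counts in T35 animals 1, 6 and 11. In CPM these are 0.335, 0 and 0 against 21.5, 19.7 and 19.2. The gene was nearly silent in all 3 fetal lungs and close to the same level in all 3 postnatal lungs. The fitted log2 fold change was 7.43 (SE 0.52, edgeR adjusted p = 0.00032), and the ratio of the pooled CPM was 186 (95% counting interval 51.1 to 1539), since F28 held 2 counts in all. Without F28 animal 2, which held both counts, the fitted value was 10.16, and without 1 of the other F28 animals it was 6.94 or 6.90. The gene reached 0.5 CPM in 3 libraries, as the filter required, only through the T35 animals. Fits without a T35 animal therefore did not test it. Among the other animals of run 1 it stayed at or under 0.459 CPM at F25, F27 and F29. The T31 animals had 1.63, 11.4 and 0 CPM, so the gene was detected in some newborn lungs and not in others.

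Gene ENSOCUG00000017160 had the largest increase of that set. It had 0, 1 and 0 counts at F28 and 60, 68 and 148 counts at T35, or 0, 0.171 and 0 CPM against 8.13, 9.42 and 20.5 CPM. The fitted log2 fold change was 7.57 (SE 0.78, edgeR adjusted p = 0.002), and the ratio of the pooled CPM was 233 (95% counting interval 41.5 to 9240), with 1 count in all F28 libraries. Without F28 animal 7, which held that count, the fitted value was 9.50. ENSOCUG00000017160 also passed the filter only through the T35 animals, and fits without a T35 animal did not test it. This gene did not follow age in the remaining animals of the run. At each of F25, F27, F29 and T31 exactly 1 of 3 animals was high, with 7.87, 7.64, 15.7 and 11.1 CPM, while the others were at or under 0.52 CPM. Over all 54 libraries it had a low level up to 0.52 CPM and a high level from 4.27 CPM, with no library between. 25 of the 45 animals were high and 20 low, 9 of the 13 groups of the series held animals of both kinds, and F28 was the 1 group in which every animal was low. None of the 6 animals sequenced more than once changed level between runs. With all 18 run 1 libraries in 1 fit, the change was 7.58 with an adjusted p of 0.0533 (edgeR), and the gene was not called.

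Gene ENSOCUG00000028083 had the largest decrease of that set. It had 9.22, 24.4 and 31.9 CPM in F28 animals 2, 7 and 9 and 0.542, 0 and 0.415 CPM in T35 animals 1, 6 and 11. All 3 fetal animals were well above the postnatal ones, although they differed by more than 3-fold from each other. The fitted log2 fold change was -5.89 (SE 0.7, edgeR adjusted p = 0.00304), and the ratio of the pooled CPM was 69.2 (95% counting interval 33.3 to 173). In run 1 the gene was at or under 1.31 CPM in all 3 animals at F25, had 1.07, 0 and 9.28 CPM at F27, and 36.1, 13.5 and 25.4 CPM at F29. At T31 it had 31.1, 3.34 and 27.6 CPM, so its highest levels in run 1 were at F28, F29 and T31.

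Gene ENSOCUG00000013068 had the second largest decrease and a higher level. It had 192, 544 and 602 CPM at F28 and 7.72, 0.139 and 20.5 CPM at T35. The T35 animals themselves were far apart, and animal 6 had 1 count. The fitted log2 fold change was -5.43 (SE 0.93, edgeR adjusted p = 0.0104), and the ratio of the pooled CPM was 47.8 (95% counting interval 41.6 to 55.1). The counting interval does not cover the spread between animals: the fitted value was -6.70 without T35 animal 11, -4.85 without T35 animal 6 and -6.80 with limma-voom. Its course over run 1 was like that of ENSOCUG00000028083, with 30.0 to 38.4 CPM at F25, 32.0, 4.06 and 173 CPM at F27, 837, 462 and 452 CPM at F29, and 824, 38.1 and 491 CPM at T31. In both genes F27 animal 11 was the highest at F27 and T31 animal 10 the lowest at T31.

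**Figure D2:**
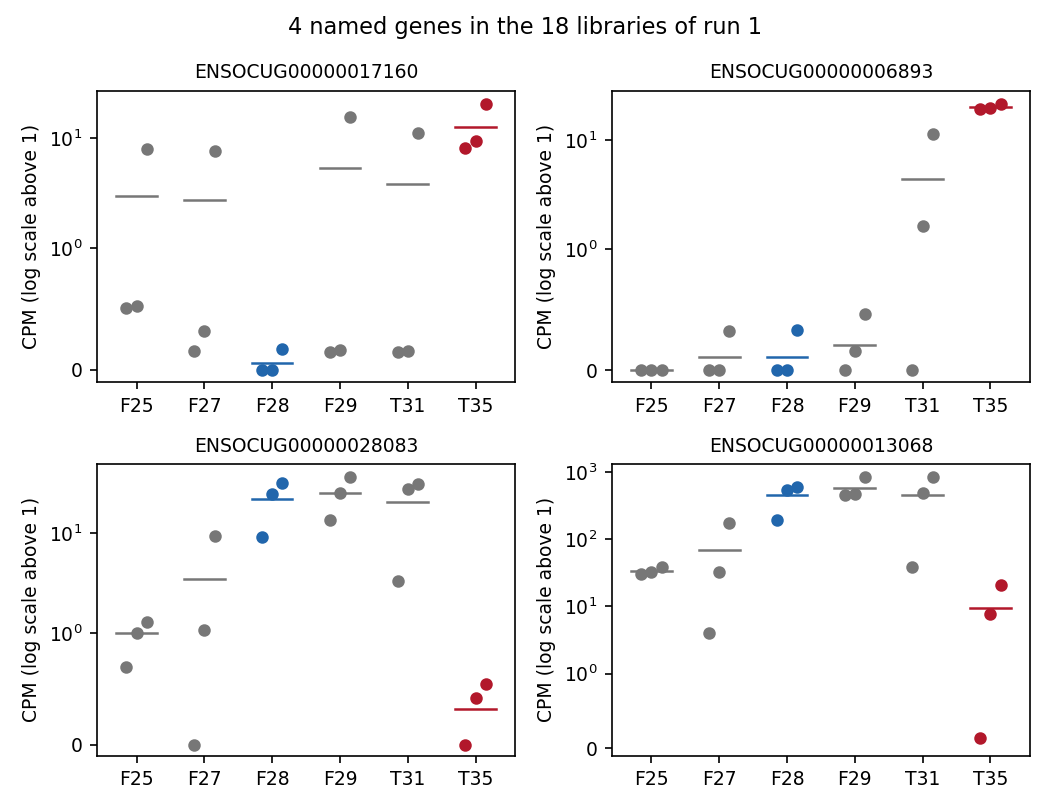
CPM of the 4 named genes in each of the 18 run 1 animals, 1 point per animal with a bar at the mean of 3, by time point from F25 to T35 (log scale above 1 CPM). The F28 and T35 animals do not overlap in any panel, which was a condition for naming these genes. ENSOCUG00000017160 has 1 high animal at each of F25, F27, F29 and T31.

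The genes in the next paragraphs were chosen after their values were seen, 2 of them because they are the most abundant in the 6 libraries. The most abundant gene had 35632, 28410 and 24281 CPM in F28 animals 2, 7 and 9 and 46719, 62262 and 52221 CPM in T35 animals 1, 6 and 11. All T35 animals were above all F28 animals, and the log2 fold change of 1.01 (SE 0.18, edgeR adjusted p = 0.0131) was just past the 2-fold limit. It lost the call under library size alone (0.87), without F28 animal 7 (0.97, adjusted p = 0.0665), without F28 animal 9 (0.91, adjusted p = 0.0541) and without T35 animal 6 (0.89, adjusted p = 0.0652). It was also not called by glmTreat against a fold change of 1.5, in run 2 (1.14, adjusted p = 0.0635) or in run 3 (0.89, adjusted p = 0.0451). At T31 it had 23950, 56111 and 56358 CPM, so 1 newborn was at the F28 level and the others at the T35 level. It was the 1 called gene among the 10 most abundant, of which 2 had an adjusted p of at most 0.05.

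The second most abundant gene had 12116 and 12153 CPM in F28 animals 2 and 7 and 47825 CPM in F28 animal 9. The T35 animals had 52205, 47256 and 43514 CPM. The F28 animals were thus at separate levels, and animal 9 lay within the T35 range. The fitted log2 fold change was 1.10 (SE 0.5, edgeR adjusted p = 0.195), which is not past the threshold, and without F28 animal 9 it was 2.13 (adjusted p = 0.00192). Its levels in the rest of run 1 were also split, with 9488, 54238 and 9778 CPM at F25, 44880, 54179 and 13799 CPM at F27, and 9059, 53744 and 48474 CPM at F29. All T31 animals of the run were low, with 9473, 10548 and 10340 CPM.

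The gene with the largest fitted change of all called genes had the mirror image of this split. It had 1993, 1931 and 4.39 CPM in F28 animals 2, 7 and 9 and 5.69, 4.16 and 2.21 CPM in T35 animals 1, 6 and 11. It was called lower, with a log2 fold change of -8.19 (SE 1.73, edgeR adjusted p = 0.0219), although F28 animal 9 lay within the T35 range. Over all 45 animals it had a level of at least 1193 CPM in 22 and of at most 66.8 CPM in 23, and 10 of the 13 groups held both kinds. In 11 other genes the widest gap between the 45 animals fell between exactly the same 22 and 23 animals with the opposite sign, and the second most abundant gene was 1 of them. Its gap was the smallest of the 11, at 1.23-fold, and the largest was 28.9-fold. The 11 identifiers all lay from ENSOCUG00000029084 to ENSOCUG00000029115, and whether they are separate signals was not tested. These 11 genes together took 1.23%, 1.23% and 5.57% of the counts in F28 animals 2, 7 and 9 and 5.99%, 5.42% and 5.26% in T35 animals 1, 6 and 11. Their log2 fold changes ran from 1.10 to 2.20, and none of the 11 was called (edgeR adjusted p from 0.12 to 0.597). The high side of the called gene held 2 of 3 animals at F28 and 0 of 3 at T35, so the split was unevenly spread over the groups compared, and the labels give no property of the animals that matches it.

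A search over all genes tested, added after these values were seen, counted how common such patterns were. A gene was counted as having 2 levels when its animals were separated by a gap of at least 3-fold, each level held at least 5 animals, at least 3 groups held both and no animal was at both. Of the 13357 genes 45 (0.337%) met these conditions, against 2 of the 737 called genes (0.271%), a share near that of all genes. Both had a change over 8-fold, among 80 such called genes, and 735 called genes remained without them.

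In TMM-scaled CPM, groups did not overlap in 4470 of the 13357 genes (33.5%), 2204 with all T35 animals above (16.5%) and 2266 with all T35 animals below (17%). Among called genes 432 of 433 higher and 302 of 304 lower genes did not overlap. The 3 exceptions were the gene with the mirror-image split and 2 others. One was lower, with 95.2, 97.4 and 10.3 CPM in F28 animals 2, 7 and 9 and 8.26, 8.59 and 10.2 CPM in T35 animals 1, 6 and 11 (log2 fold change -2.75, edgeR adjusted p = 0.0348). The other was higher, with 207, 184 and 161 CPM at F28 and 844, 165 and 705 CPM at T35 (log2 fold change 1.77, edgeR adjusted p = 0.0473). In the lower gene the printed CPM, which are not TMM-scaled, are just apart, and after scaling they overlap. In each gene a single animal was at the level of the other age. Over the 45 animals of the series, the lower gene was at 87.1 CPM or more in 4 and at 23.3 CPM or less in 41. The higher gene was at 610 CPM or more in 24 and at 309 CPM or less in 21. Both kinds were found within 3 groups for the lower gene and within 9 for the higher gene.

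The animals of an age were nearer to each other than to those of the other age. The root mean square log2 difference over the genes tested was 0.609 to 0.676 between F28 animals (median 0.649, 3 pairs) and 0.625 to 0.732 between T35 animals (median 0.639, 3 pairs). Between the ages it was 0.827 to 0.910 (median 0.861, 9 pairs), so the nearest pair of different ages was farther apart than the farthest pair of the same age. In the 7862 genes of at least 10 CPM, the median SD of the log2 CPM was 0.152 at F28 and 0.195 at T35, and 4811 genes (61.2%) varied more among the T35 animals.

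**Figure D3:**
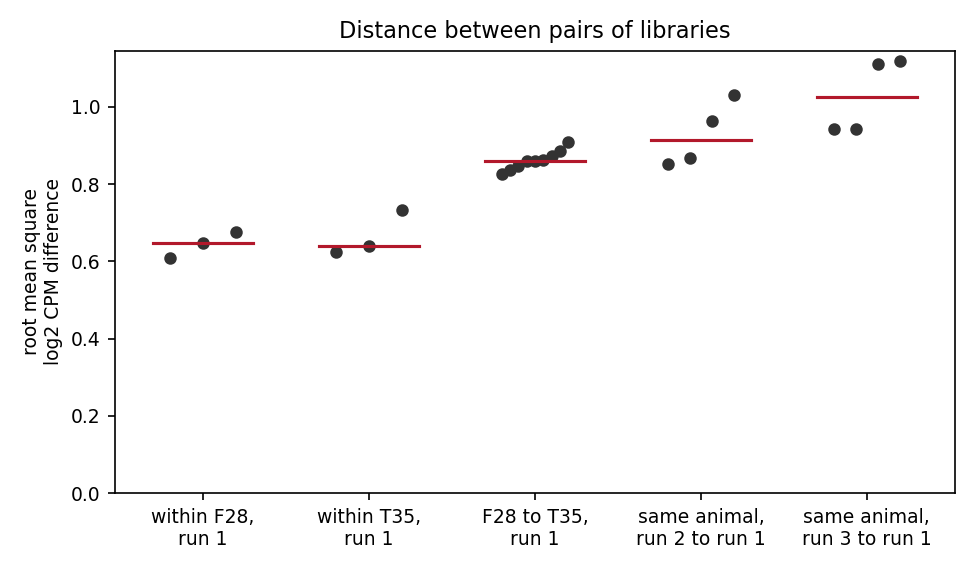
Root mean square log2 difference over all genes tested for the pairs of run 1 libraries within F28, within T35 and between the ages, and for libraries of the same animal read in different runs, with bars at the medians. The 9 pairs between ages lie above the 6 pairs within an age, and the pairs of the same animal across runs reach from 0.852 to 1.12.

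Libraries of the same animal in different runs differed more than different animals of an age within run 1. Their distances were within or above the range of 0.827 to 0.910 found between the ages. The distance of the run 2 library from the run 1 library was 0.852 to 1.03 in 4 animals, with 21.1% to 28.8% of the genes apart by more than 2-fold. For run 3 it was 0.942 to 1.12, with 25.5% to 33.1% of the genes. The main comparison holds run 1 libraries alone, and the runs below were compared only by the difference of T35 and F28 within a run.

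In run 2, F28 animals 2 and 9 and T35 animals 6 and 11 were read again. The sign of run 1 was found in 692 of the 737 called genes (93.9%), 419 of the 433 higher genes (96.8%) and 273 of the 304 lower genes (89.8%), while 42 had the opposite sign and 3 no difference. The median log2 difference of the higher genes was 1.32, against 1.67 in the run 1 libraries of the same animals, and that of the lower genes was -0.89 against -1.41. A change over 2-fold was found in 302 higher genes (69.7%) and 133 lower genes (43.8%). The differences were thus smaller than in the run that chose the genes, and more so among the lower genes.

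In run 3, F28 animals 2 and 7 and T35 animals 6 and 11 were read again. The sign of run 1 was found in 685 called genes (92.9%), 423 of the higher (97.7%) and 262 of the lower (86.2%), while 50 had the opposite sign and 2 no difference. The medians were 1.28 against 1.59 for the higher genes and -0.91 against -1.44 for the lower genes. Over both runs 658 genes (89.3%) kept the sign, 16 had the opposite sign in both, and 357 (48.4%) were past 2-fold in both, 250 of them higher and 107 lower. T35 animal 1 has a run 1 library only. These are the same animals again, so the agreement bears on libraries and runs and not on the spread between animals.

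**Figure D4:**
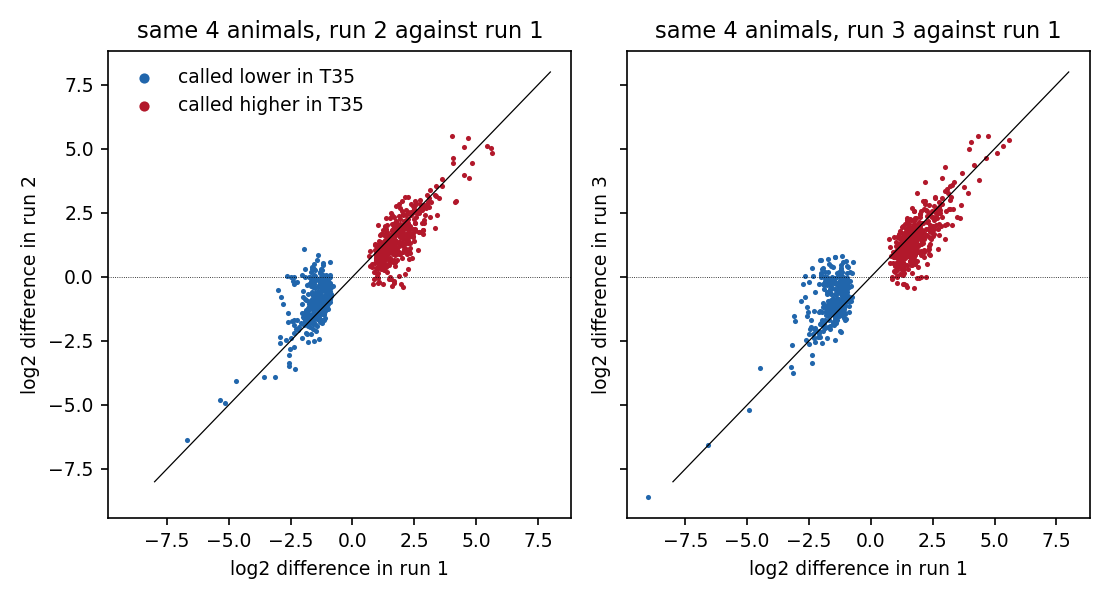
Log2 difference of T35 and F28 for the 737 called genes in run 2 and in run 3 (vertical axes) against that of the same animals in run 1 (horizontal axes), 1 point per gene, with a line where both are equal. The sign is shared by 93.9% of the genes in run 2 and by 92.9% in run 3, and the medians of both sets are nearer to 0 than in run 1.

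The named genes kept the direction of run 1 in the repeated libraries, while some levels differed. ENSOCUG00000006893 had 0.15 and 0 CPM in F28 animals 2 and 9 and 9.76 and 10.7 CPM in T35 animals 6 and 11 in run 2. The same T35 animals had 19.7 and 19.2 CPM in run 1 and 17.5 and 19.1 CPM in run 3. ENSOCUG00000017160 had 0 and 0.136 CPM in these F28 animals and 6.88 and 11.7 CPM in these T35 animals in run 2. ENSOCUG00000028083 had 14.7 and 47 CPM in these F28 animals and 0.125 and 1.39 CPM in these T35 animals. ENSOCUG00000013068 had 121 and 315 CPM against 0.125 and 11.6 CPM in run 2, and 141 and 348 CPM against 0 and 17.7 CPM in run 3. T35 animal 6 had at most 1 count of this gene in each of its 3 libraries. With 2 animals a group the test did not call it in either run (edgeR adjusted p = 0.0576 in run 2 and 0.0947 in run 3). The 2 named genes with an increase were under 0.5 CPM at F28 and did not enter these fits, which required 0.5 CPM in 3 libraries.

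The called genes were then followed over the 6 time points of run 1, from F25 to T35. The levels are the median over the called genes in each animal, as a log2 difference from the F28 mean, given as mean ± SD of 3 animals. The higher genes were at -0.31 ± 0.19 at F25 and -0.16 ± 0.2 at F27, at 0.38 ± 0.07 at F29, at 0.84 ± 0.29 at T31 and at 1.58 ± 0.06 at T35. The lower genes were at -0.11 ± 0.04 at F25, -0.22 ± 0.13 at F27, -0.24 ± 0.09 at F29, -0.73 ± 0.13 at T31 and -1.35 ± 0.08 at T35. F28 and T35 chose the genes, and the 2 ends of these courses carry no further information. The levels at F29 and T31 share the F28 animals as their reference and are given without a test. The choice of genes also partly fixes where the other time points lie relative to F28 and T35.

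**Figure D5:**
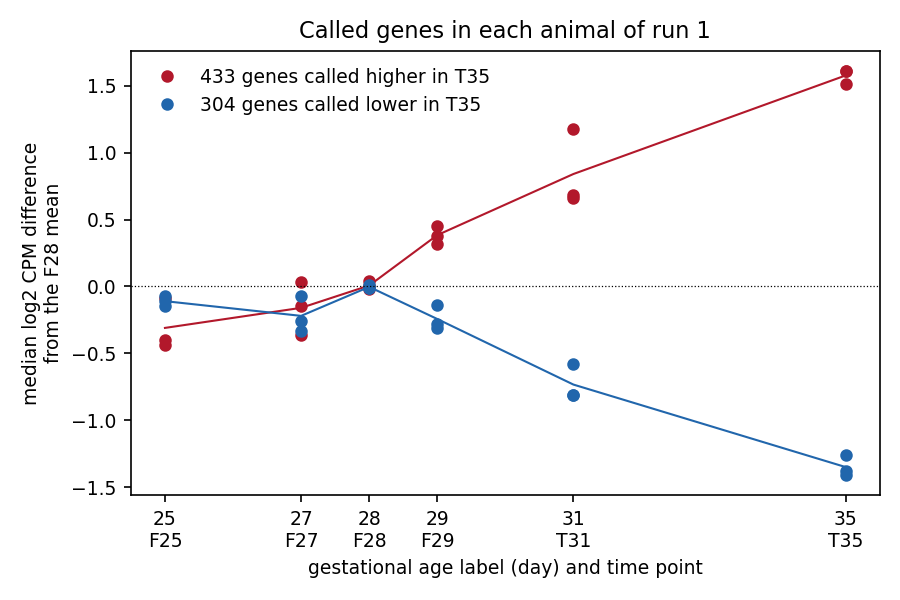
Median log2 difference from the F28 mean over the 433 called higher and the 304 called lower genes, 1 point per run 1 animal, with a line through the means of the time points, by gestational age in days. The T31 animals lie between F28 and T35 in both sets, which the choice of genes by F28 and T35 partly fixes. T31 animal 10 is the highest of the T31 animals for the higher genes.

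For the called genes, the lungs of newborns at T31 lay between both groups, a position that the choice of genes by F28 and T35 partly fixes. The higher genes were at 0.68, 1.18 and 0.66 in T31 animals 1, 10 and 15, and the lower genes at -0.81, -0.81 and -0.58. Of the 433 higher genes, 171 (39.5%), 316 (73%) and 190 (43.9%) were nearer to the T35 mean than to the F28 mean in these animals. Of the 304 lower genes this held for 170 (55.9%), 180 (59.2%) and 123 (40.5%). Shares nearer to T35, here and at the fetal time points, carry the same limit and were not counted over all genes tested. Animal 10 was nearer to T35 than the other newborns for the higher genes, and animal 15 had the smallest share for the lower genes.

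At F29, 1 day after F28, the higher genes were at 0.32, 0.45 and 0.38 in animals 2, 7 and 11, with 18.9% to 24.2% of them nearer to T35. The lower genes were at -0.14, -0.28 and -0.31, with 12.5% to 23.4% nearer to T35. The shares of lower genes nearer to T35 were as high before F28, with 22% to 25.3% at F25 and 13.5% to 21.4% at F27. For the higher genes they were 8.78% to 17.8% at F25 and 7.85% to 8.78% at F27. At F25 and F27 the higher genes were lower than at F28 in 5 of 6 animals, and the lower genes were also lower than at F28 in 6 of 6. The lower genes were chosen for high levels in the F28 animals, which are also the reference. Their lower level in other fetal animals is therefore partly fixed by that choice.

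The shapes of the courses were not the same in both sets. T35 had the highest mean of the 6 time points in 391 of the 433 higher genes (90.3%), and T31 in 33 (7.62%). Their lowest mean was at F25 in 225 genes (52%), at F28 in 92 (21.2%) and at F27 in 84 (19.4%). Of the 304 lower genes, 262 (86.2%) had their lowest mean at T35, while the highest was at F28 in 131 (43.1%) and at F25 in 100 (32.9%). Over all genes tested the highest mean was at T35 in 24.9%, at F25 in 25.5%, at T31 in 16.4% and at F28 in 11.9%. The lowest mean over all genes tested was at F25 in 26.8%, at T35 in 23.8%, at F28 in 11% and at F27 in 9.61%. The other lower genes had their highest mean at F29 (33), F27 (31) or T31 (9). The choice of genes by F28 and T35 partly fixes these counts.

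Separation of F28 and T35 did not mean that other ages were uniform. Of the 734 called genes without overlap, 249 (33.9%) had at least 1 other time point of run 1 at which one animal reached the F28 range and another the T35 range. This was so at T31 in 138 genes, at F29 in 73, at F25 in 53 and at F27 in 52, and 52 genes had it at 2 or more time points. For changes over 4-fold it held for 80 of 220 genes (36.4%), and for changes over 8-fold for 22 of 79 (27.8%). This count was added after the course of ENSOCUG00000017160 was seen. It was not made for genes that were not called, so whether the share is particular to called genes was not tested.

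Each fit without 1 animal also had fewer libraries, and the effect of the animal was not told apart from that of the smaller fit. The number of called genes changed with each animal left out. It was 388 without F28 animal 2, 381 without F28 animal 7, 489 without F28 animal 9, 828 without T35 animal 1, 312 without T35 animal 6 and 501 without T35 animal 11. Without T35 animal 1 the number rose to 446 higher and 382 lower genes, while without T35 animal 6 it was 193 higher and 119 lower. Of the 737 called genes, 292 (39.6%) were called without T35 animal 6 and 584 (79.2%) without T35 animal 1. In each fit 16 (without an F28 animal) or 41 (without a T35 animal) of the called genes were not tested, and 0 of those tested had the opposite sign.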

How the data were processed

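Lung RNA was read with a 3′ mRNA kit (QuantSeq FWD), 75 bp single end. The authors trimmed reads with BBduk, used STAR for alignment to OryCun2.0 and HTSeq-count with the Ensembl annotation for counting, and deposited raw counts per gene. Per the study's methods a custom script took up reads in 3′ UTRs of protein-coding genes that the annotation lacks. Whether the table includes these reads, and the tool versions, are not given in the sources used here. No 2 libraries were identical (0 pairs), and 0 columns were unused.

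Counts were tested with edgeR 4.0.16 (R 4.3.3): TMM, genes of at least 0.5 CPM in at least 3 libraries, quasi-likelihood test, Benjamini-Hochberg adjustment. A call required an adjusted p no higher than 0.05 and a change of over 2-fold. Standard errors are the log2 fold change divided by the root of F, and log2 CPM values used a prior count of 2. Alternatives were limma-voom (limma 3.58.1), DESeq2 1.42.0, other scalings, filters and libraries. The procedure was tested on simulated data with planted log2 changes of 1.5, 2 or 3. There edgeR recovered 149 of 197 planted changes (75.6%), and 63.6% of those of 1.5. It also called 11 genes without a planted change. Genes are named for the size of their change, from the called genes of at least 5 CPM without overlap, at most 2 per direction, because no symbols could be matched. Planned gene lists and markers were not applied for the same reason. Members and lists were chosen with earlier results of these data known. Intervals cover counting error only and take the counts as independent reads. Reads carry no molecular identifiers, so this could not be checked. Figures used matplotlib 3.10.9.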

Additional observations from a re-analysis of the deposited data

How the results depend on the processing

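The numbers of called, higher and lower genes stayed within 1.5 times under other scalings, DESeq2, limma-voom, other filters and the fit of 18 libraries. They were 1466, 806 and 660 with the adjusted p alone, 192, 127 and 65 with glmTreat against a fold change of 1.5, 305, 204 and 101 in run 2, and 325, 220 and 105 in run 3. Leaving out 1 animal in turn gave 312 to 828, 193 to 446 and 119 to 382. The share of called genes with the same sign in runs 2 and 3 was 91.4% and 90.8% for the adjusted p alone, 99.0% and 96.9% for glmTreat, and 94.3% to 99.0% and 91.4% to 96.1% without 1 animal. With library size alone it was 90.1% in run 3. The F29 level of the higher genes was 0.20 for the adjusted p alone, 0.24 for genes called in run 3 and 0.29 to 0.36 without 1 animal. The T31 level of the lower genes was -0.50 for the adjusted p alone, -0.59 for run 2 and -0.58 for run 3, and their F29 level was -0.13 for both runs. Of the called genes tested in the run 2 and run 3 fits (80 and 89 were not tested), 31 each had the opposite sign. In the fits on run 1, where up to 217 were not tested, 0 of those tested had it. Fits on runs 2 and 3 or without 1 animal had fewer libraries, and the cause of these shifts was not tested. No paired analysis was possible because F28 and T35 are different pups, and no label links a pup of one age to a pup of the other.

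With 3 animals a group, genes under 1 CPM had wide errors, and a missing call there does not show that a gene did not differ. DESeq2 gave no adjusted p for 785 genes. The alternatives planned for gene lists were not run, as no symbols were available.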
